A study of Homo sapiens with 14 samples.

Results

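The genes described here are 48 genes of mitosis: kinases, cyclins and their regulators, spindle checkpoint proteins, microtubule motors and spindle proteins, kinetochore proteins, condensin subunits and proteins of the midzone. They were chosen by symbol, not by a measured value, though with earlier results of these data known. All 48 were found among the 36601 genes of the single-cell tables and in the bulk tables. The cells were SW620, a line from a lymph node metastasis of a colorectal cancer, and SW620-TET2CD, the same line with an added catalytic domain of the DNA demethylase TET2. The paper describes the SW620 control as carrying an empty FLAG construct. The sources used here do not say whether either line was a single clone. Both lines were left to grow without passage for up to 15 days, and single-cell libraries were made on days 6, 9, 12 and 15, with 1 library for each line and day. Bulk RNA-seq came from whole cultures of SW480, a primary tumour line of the same patient, and of SW620 on day 6, and from cells inside and outside the colonies of SW620 and of SW620-TET2CD on day 15, again with 1 library each. According to the study's methods, such cultures were digested briefly and strained. The single cells in the flow-through counted as outside, and the spheres held back, which went through a second digestion with trypsin, as inside, so that place here means a strainer fraction and its handling.

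Mitosis begins when CDK1, bound to a B-type cyclin and freed of inhibitory phosphates by CDC25 phosphatases, phosphorylates a wide set of proteins. PLK1 and the Aurora kinases then build the spindle and correct its attachments, the checkpoint proteins hold the anaphase-promoting complex (APC/C) in check until each kinetochore is attached, and CDC20 and UBE2C let that complex mark securin and cyclin B for destruction. Most of these genes are transcribed in G2 and mitosis and are low in cells outside the cycle, so that their summed level is a common measure of proliferation in tumour tissue.

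In the 8 single-cell libraries, UMIs (unique molecular identifiers, the tags that count RNA molecules) were summed over 48282 kept cells of 67056 barcodes, with 3894 to 8154 cells and 48186195 to 74185723 UMIs in a library. A kept cell had between 200 and 4500 detected genes, between 1000 and 20000 UMIs and no more than 10% of its UMIs from mitochondrial genes, the limits the study used. The study first brought its libraries to a common sequencing depth, which was not done here, and reports fewer cells. The kept cells are therefore not the same set. Levels are given as CPM, the summed UMIs of a gene scaled to a common library total. The epithelial markers EPCAM, at 496 to 639 CPM, and KRT18, at 4335 to 7254 CPM, were present in every library, while the leukocyte marker PTPRC and the fibroblast marker COL1A2 did not pass 0.0197 CPM in any. Of the other epithelial markers, KRT8 was at 2991 to 4327 CPM, CDH1 at 24.7 to 119 CPM and CDX2 at 8.99 to 20.4 CPM. KRT20 was only at 0.217 to 0.965 CPM, below the fibroblast marker COL1A1, at 1.15 to 3.35 CPM, in every library. Of the 8 markers of fibroblasts, leukocytes and endothelium, 4 of the 5 tested were called higher late in edgeR, and their sum was 3.47 to 4.73 CPM early and 6.89 to 40.4 CPM late, or 1.69 to 3.05 and 2.82 to 5.02 CPM without CD68. The most abundant, CD68, a lysosomal protein also used as a macrophage marker, was 1.20 to 1.88 CPM on days 6 and 9 and 3.61 to 36.9 CPM on days 12 and 15, and its part in the results below was not tested. Any pair of libraries shared 1 to 23 cell barcodes. Each line was sampled once on each day, so no p-value below measures the spread among repeated cultures. Those of late against early days, and of its difference between lines, rest on the spread among libraries of 2 lines and 2 days. Those of single steps between days and of the lines rest on how the difference between lines varied over the days. Those of place rest on how it varied between places.

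All 48 genes fell between the early days (6 and 9) and the late days (12 and 15). The test was edgeR's quasi-likelihood test with line as a block and with p-values adjusted by the Benjamini-Hochberg method over 16993 tested genes, of which 28.3% were called lower. The median log2 fold change of the 48 was -2.23, against a median of 0.04 over all tested genes, and adjusted p-values ran from 6.9e-06 for CCNA2 to 0.000714 for CDC25B. In each of the 48, the 4 late libraries all lay below the 4 early ones, which held for 14.4% of the 26937 genes with a UMI. Summed over the 48 genes, the level was 3903 and 4494 CPM in SW620 on days 6 and 9 and 4454 and 3973 CPM in SW620-TET2CD, against 799.6 and 1225 CPM on days 12 and 15 in SW620 and 1346 and 1196 CPM in SW620-TET2CD. When cells above the upper limits on genes and UMIs were also kept, all 48 were still called lower but the median became -1.55.

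**Figure D1:**
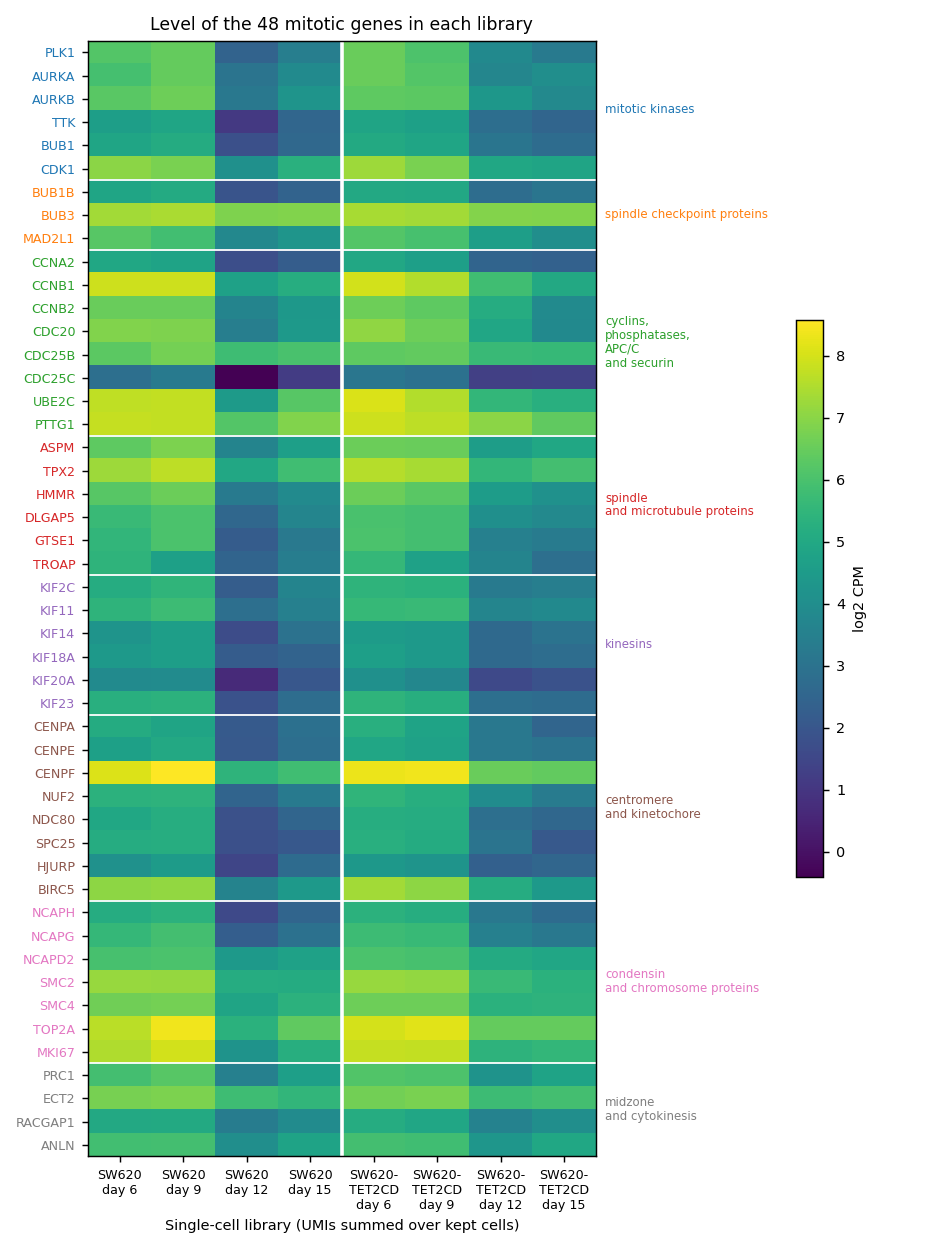
Each row is 1 of the 48 mitotic genes and each column 1 single-cell library, ordered by line and day; the colour is the log2 of the CPM of summed UMIs, and row colours mark the role of the gene. In both lines the columns of days 12 and 15 are darker than those of days 6 and 9 for all 48 genes, least so for BUB3 and CDC25B.

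Among the 6 mitotic kinases, PLK1, which drives mitotic entry and centrosome maturation, changed most of all 48 genes. In the order of days 6, 9, 12 and 15, its level was 72.8, 88.4, 5.48 and 10.8 CPM in SW620 and 91.6, 67.5, 14.4 and 9.82 CPM in SW620-TET2CD. The groups did not overlap, and the log2 fold change was -3.10 ± 0.27 (SE, 4 late against 4 early libraries, edgeR adjusted p = 1.6e-05). AURKA, the Aurora kinase of spindle poles, stood at 60.6, 87.1, 8.29 and 14.96 CPM in SW620 and 92.3, 71.5, 13.2 and 16.1 CPM in SW620-TET2CD on these days. AURKB, the kinase of the chromosomal passenger complex, stood at 77.3, 96.6, 9.02 and 18.7 CPM in SW620 and 82.4, 79.9, 20.5 and 14.1 CPM in SW620-TET2CD. Both fell, by log2 fold changes of -2.68 ± 0.22 and -2.53 ± 0.25 (SE), and in both the lowest library was SW620 on day 12. CDK1, the kinase at the centre of mitotic entry, was measured at 131, 109, 17.2 and 39.3 CPM in SW620 and 152, 110.1, 30.4 and 28.8 CPM in SW620-TET2CD. The checkpoint kinase BUB1 was lower in level, at 29.2, 34.7, 3.41 and 6.17 CPM in SW620 and 33.1, 28.97, 8.51 and 6.76 CPM in SW620-TET2CD. The log2 fold change was -2.21 ± 0.26 for CDK1 and -2.48 ± 0.23 for BUB1, and TTK, the kinase that starts the spindle checkpoint, fell by 2.5 on the log2 scale.

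The cyclins and regulators of the APC/C fell as the kinases did, apart from CDC25B and PTTG1, whose changes were smaller. CCNB1 encodes cyclin B1, the main partner of CDK1, and gave 238, 237, 26.5 and 36.8 CPM in SW620 and 249.99, 184, 56.3 and 32.3 CPM in SW620-TET2CD on days 6, 9, 12 and 15. CCNB2, the second B-type cyclin, gave 91.8, 92.2, 12.5 and 20.7 CPM in SW620 and 97.3, 81.8, 35.9 and 14.7 CPM in SW620-TET2CD. In CCNB2 the SW620-TET2CD library of day 12 was the highest late library and still below every early one. The log2 fold changes were -2.70 ± 0.24 and -2.24 ± 0.30 (SE), and that of CCNA2, the cyclin of S phase and G2, was -2.74 ± 0.17. CDC20, the activator of the APC/C, was 118, 114, 10.7 and 21.98 CPM in SW620 and 135, 95.7, 30.2 and 14.5 CPM in SW620-TET2CD. UBE2C, the conjugating enzyme that works with it, was 211, 217, 22.2 and 75.8 CPM in SW620 and 271, 184, 46.6 and 37.8 CPM in SW620-TET2CD. The fall was -2.69 ± 0.30 for CDC20 and -2.37 ± 0.35 for UBE2C as log2 fold changes, with the highest late value of UBE2C in SW620 on day 15. CDC25B, a phosphatase that activates CDK1 at the centrosome, changed little by comparison, at 79.6, 103, 55.7 and 64.3 CPM in SW620 and 81.1, 84.6, 51.7 and 49.2 CPM in SW620-TET2CD. Its groups were apart by a narrow margin (79.6 CPM in the lowest early library and 64.3 CPM in the highest late one), and its log2 fold change was -0.77 ± 0.13 (edgeR adjusted p = 0.000714). CDC25C, the phosphatase of the same family at mitotic entry, had a log2 fold change of -2.19 ± 0.31 from much lower levels, 7.25 to 9.57 CPM early and 0.749 to 2.51 CPM late. PTTG1, which encodes securin, the inhibitor of separase, had -1.23 ± 0.21.

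BUB3, a checkpoint protein that brings BUB1 and BUBR1 to kinetochores, changed least of the 48. It stood at 160.5, 174, 114 and 117 CPM in SW620 and 169, 163, 119 and 116 CPM in SW620-TET2CD on days 6, 9, 12 and 15. The 4 late libraries differed by little among themselves and lay below the early ones, with a log2 fold change of -0.63 ± 0.11 (SE, edgeR adjusted p = 6.8e-04). The other two checkpoint proteins fell further, BUB1B (BUBR1) by 2.52 and MAD2L1 by 1.95 on the log2 scale.

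Spindle proteins, kinesins and kinetochore proteins fell within a narrow band. The 6 spindle and microtubule proteins had log2 fold changes from -2.87 for GTSE1, a microtubule plus-end protein, up to that of TPX2, which activates AURKA on the spindle and fell least of the 6. GTSE1 was measured at 45.8, 65.00, 4.57 and 9.33 CPM in SW620 and 65.8, 59.5, 11.2 and 10.0 CPM in SW620-TET2CD. Of the 6 kinesins, KIF23, a part of centralspindlin at the midzone, had the lowest log2 fold change (-2.80 ± 0.22) and KIF14, a motor of cytokinesis, the highest (-1.91 ± 0.25). KIF20A, the midzone kinesin that carries AURKB, was low throughout, at 14.8, 15.2, 1.56 and 4.05 CPM in SW620 and 17.2, 13.4, 2.95 and 3.65 CPM in SW620-TET2CD, with a log2 fold change of -2.42 ± 0.27. The 8 centromere and kinetochore genes ran from -3.00 for SPC25 to -2.08 for HJURP, the chaperone that loads CENPA. SPC25, a subunit of the NDC80 complex that binds microtubules, was 35.7, 36.6, 3.43 and 4.12 CPM in SW620 and 38.7, 34.9, 8.28 and 4.27 CPM in SW620-TET2CD. Its late libraries were alike except SW620-TET2CD on day 12, which was the highest of the 4. Its partners in that complex fell as well, NDC80 by 2.74 and NUF2 by 2.16 on the log2 scale.

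Among the chromosome proteins, the condensin subunits did not change by one amount. NCAPH and NCAPG, kleisin and HEAT-repeat subunits of condensin I, had log2 fold changes of -2.81 ± 0.25 and -2.82 ± 0.21 (SE). NCAPD2, the other HEAT-repeat subunit of the same complex, was 62.01, 65.8, 21.7 and 26.6 CPM in SW620 and 65.8, 62.01, 34.2 and 30.3 CPM in SW620-TET2CD, a log2 fold change of -1.30 ± 0.14. SMC2, an ATPase core subunit shared by both condensins, was 148, 141, 35.3 and 34.8 CPM in SW620 and 145, 139, 50.7 and 40.3 CPM in SW620-TET2CD, with -1.95 ± 0.13, and its partner SMC4 had -1.49 ± 0.15. TOP2A, which untangles sister chromatids, stood at 200.1, 335, 39.96 and 82.8 CPM in SW620 and 257, 289, 87.9 and 88.6 CPM in SW620-TET2CD. MKI67, whose protein Ki-67 coats mitotic chromosomes and is the usual stain for cycling cells, stood at 181, 247, 18.5 and 37.5 CPM in SW620 and 221, 216, 42.3 and 46.7 CPM in SW620-TET2CD. The log2 fold changes were -1.97 ± 0.25 for TOP2A and -2.71 ± 0.24 for MKI67. In both genes the early level was highest in SW620 on day 9 and the late level lowest in SW620 on day 12.

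The 4 genes of the midzone and cytokinesis had the smallest median fall of the 8 roles, -1.41 on the log2 scale. ECT2, the exchange factor that turns on RhoA at the equator, was 107, 112, 54.9 and 45.3 CPM in SW620 and 101, 108, 54.2 and 59.4 CPM in SW620-TET2CD, with a log2 fold change of -1.12 ± 0.10 (edgeR adjusted p = 1.9e-05). PRC1, which bundles midzone microtubules, was 59.8, 76.6, 11.4 and 25.5 CPM in SW620 and 70.8, 67.4, 18.6 and 28.01 CPM in SW620-TET2CD. ANLN, the anillin scaffold of the contractile ring, was 57.7, 59.6, 16.4 and 27.5 CPM in SW620 and 58.6, 56.4, 19.9 and 30.8 CPM in SW620-TET2CD. RACGAP1, the partner of KIF23 in centralspindlin, was 32.3, 33.01, 10.1 and 15.02 CPM in SW620 and 35.3, 30.3, 11.9 and 16.2 CPM in SW620-TET2CD. In these last 3, as in 11 of the 48 genes (22.9%, AURKA, TPX2 and SMC4 among them), both libraries of day 15 lay above both of day 12, which held for 21.4% of 16714 genes with at least 80 UMIs in all.

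**Figure D2:**
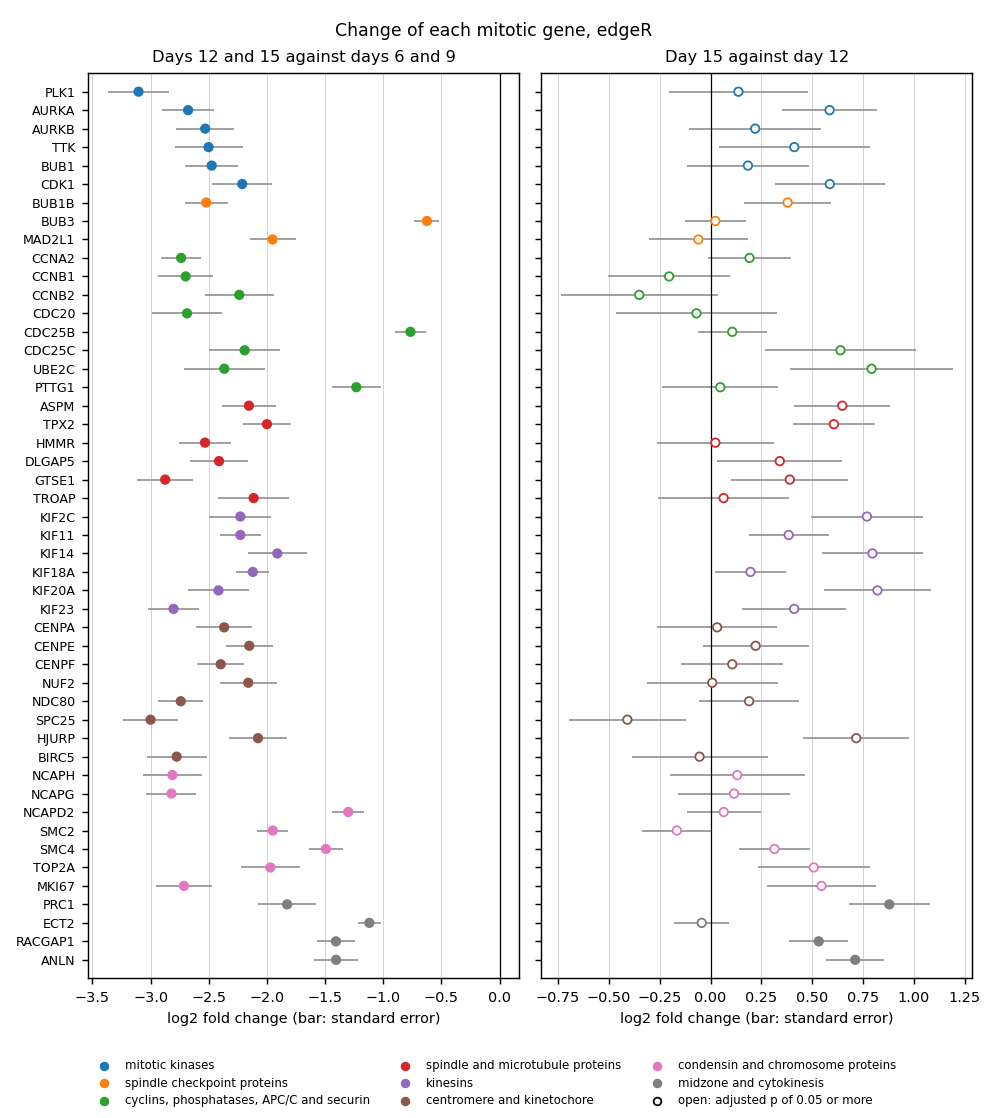
Each point is the log2 fold change of 1 of the 48 genes from edgeR with its standard error, for late against early days (left) and for day 15 against day 12 (right); colours mark roles, and open points have an adjusted p of 0.05 or more. On the left all 48 points lie below 0, from -3.10 for PLK1 to -0.63 for BUB3; on the right 40 lie above 0 and 3 (ANLN, PRC1 and RACGAP1) are filled, a share of 6.25% against 6.56% of all tested genes.

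Taken day by day, with line as a block in one fit of all 8 libraries, the fall in kept cells lay between days 9 and 12. These steps share libraries with each other and with the comparison of late and early days. From day 6 to day 9 none of the 48 passed the threshold in edgeR, where 0.887% of 17478 genes were called in either direction, and 1 of the 48 had an unadjusted p under 0.05. That gene was TROAP, a spindle protein, at 43.8 and 48.03 CPM on day 6 and 25.8 and 26.8 CPM on day 9 in SW620 and SW620-TET2CD (edgeR adjusted p = 0.207), and DESeq2 called none of the 48. The lines went in opposite directions in this step. In SW620, 39 of the 48 had a higher CPM on day 9, where 50.4% of 16714 genes with at least 80 UMIs in all did. In SW620-TET2CD 6 of the 48 did, where 58% of the genes did. The median log2 ratios of the 48 were 0.23 and -0.16. From day 9 to day 12 all 48 were called lower, against 21.9% of all tested genes, with a median log2 fold change of -2.53. GTSE1 had the lowest value of that step (-3.17 ± 0.30) and BUB3 the highest (-0.65 ± 0.15). With cells above the upper limits kept, the median was -1.19 and all 48 were again called lower. In that setting the fall went on from day 12 to day 15, with a median of -0.69. Within each line on its own, with 1 library per day, all 48 were lower on day 12 than on day 9, by a median of 3.11 on the log2 scale in SW620 and 1.83 in SW620-TET2CD.

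From day 12 to day 15 the number of members called was no larger than over all genes: 3 of the 48 (6.25%), ANLN, PRC1 and RACGAP1, were called higher, where 6.56% of tested genes were, and none was called lower. The log2 fold changes were 0.71 ± 0.14 (SE, edgeR adjusted p = 0.0107) for ANLN, 0.88 ± 0.20 (0.0181) for PRC1 and 0.53 ± 0.14 (0.0354) for RACGAP1. The median over the 48 genes was 0.21, with 40 above 0. This step depended on the line and on the cells kept. In SW620, 46 of the 48 had a higher CPM on day 15 than on day 12, where 36.2% of 16714 genes with at least 80 UMIs in all did, and in SW620-TET2CD 18 of the 48, where 56.9% of the genes did. With cells above the upper limits kept, all 48 had a log2 fold change below 0, the median was -0.69, and 27 were called lower, against 8.82% of all genes tested that way. Without the SW620 library of day 12 the median was -0.18 and 4 genes were called, all lower, and without the SW620-TET2CD library of day 12 it was 0.88 and 16 were called, all higher. Over all genes tested in these fits, 5.39% were called lower in the first and 0.872% higher in the second. Leaving out the SW620-TET2CD library of day 15 gave 11 called higher, where 10.1% of genes were.

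In the single-cell libraries, none of the 48 genes differed between SW620-TET2CD and SW620 at the threshold, with day as a block, where 4.32% of 17478 genes did. The median log2 fold change was 0.11, with 40 genes above 0, and 1 gene had an unadjusted p under 0.05 in edgeR, while DESeq2 called none. That gene was CDC25B, lower in SW620-TET2CD by a log2 fold change of -0.29 ± 0.12 (edgeR adjusted p = 0.265). The direction of the median rested on day 12. On that day 46 of the 48 were higher in SW620-TET2CD, against 44 on day 6, 3 on day 9 and 29 on day 15, and SW620 on day 12 was the lowest of the 8 libraries for 45 of the 48. Without the SW620 library of day 12 the median was -0.09 with 6 genes above 0, and without the SW620-TET2CD library of that day it was -0.10 with 4. In the bulk libraries of day 15, SW620-TET2CD was below SW620 in all 48 genes inside the colonies and in 45 outside. The single-cell libraries of day 15 did not show this, and the reason was not tested. The test of whether the change from early to late days differed between the lines called none of the 48 and 0% of 17478 genes, with 141 genes at an unadjusted p under 0.05 in edgeR, CENPF the 1 member among them, and no gene called by DESeq2. The median interaction was 0.30, a smaller fall in SW620-TET2CD, with 44 of the 48 above 0, but it moved with the libraries and cells used. It was -0.08 without the SW620 library of day 12, 0.15 without the SW620-TET2CD library of that day, 0.97 without the SW620 library of day 15, and 0.61 with cells above the upper limits kept. On simulated counts this interaction test recovered 69% of genes given a log2 difference of 2 and 7% of those given 1. The simulation gave both days of a phase the same mean, whereas the measured libraries of a phase came from different days. These shares therefore cannot be read as power on the measured counts.

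The fall could be followed in single cells by how many of the 48 genes were detected. Each kept cell with at least 3000 UMIs was thinned to 3000, so that cells were counted at one depth. The upper limits on genes and UMIs still set which cells were counted. A cell with a UMI of at least 10 of the 48 genes was called member-rich, a range of a score and not a cell type. In SW620 the share of member-rich cells was 38.5% of 5522 cells on day 6 (95% Clopper-Pearson interval 37.2 to 39.8%) and 40.2% of 7335 on day 9 (39.0 to 41.3%), then 3.41% of 3895 on day 12 (2.87 to 4.03%) and 5.21% of 6645 on day 15 (4.68 to 5.77%). In SW620-TET2CD it was 44.3% of 8069 (43.2 to 45.3%), 35.4% of 6328 (34.2 to 36.5%), 7.74% of 3865 (6.91 to 8.62%) and 4.70% of 5739 (4.17 to 5.28%). These intervals cover counting error only. Cells with 8 to 11 of the genes, near the limit, made up 18.1 to 24.1% of cells on the early days and 1.46 to 4.14% on the late days. The median cell had 7 to 9 of the 48 genes detected early and 1 late, and without thinning the shares were 63.0 to 82.4% early and 7.15 to 19.7% late. The mean share differed by -34.3 percentage points between late and early libraries, with the lowest early library at 35.4% and the highest late one at 7.74%. With cells above the upper limits also kept, the share in SW620 was 8.87% on day 12 and 5.74% on day 15. In SW620-TET2CD it was 17.8% and 7.17%. The order of days 12 and 15 in SW620 thus depended on the cells kept.

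**Figure D3:**
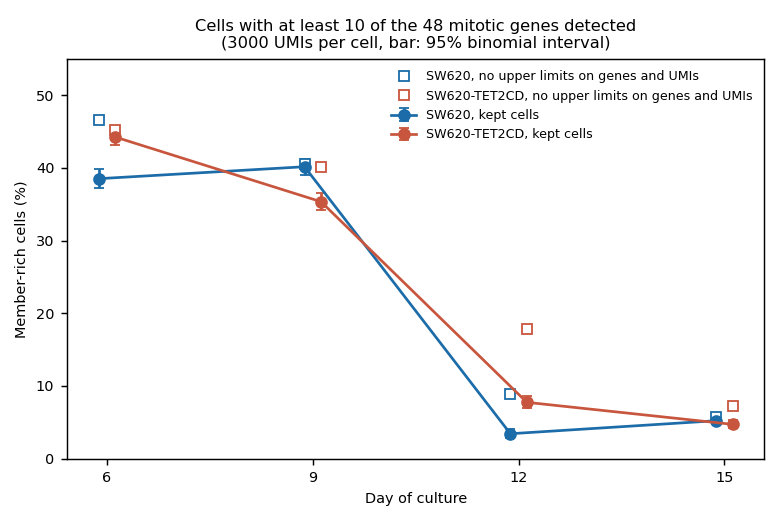
The share of cells with at least 10 of the 48 mitotic genes detected at 3000 UMIs per cell, by day of culture, for SW620 and SW620-TET2CD; filled points are kept cells with 95% binomial intervals, and open squares add cells above the upper limits on genes and UMIs. The filled points lie between 35.4 and 44.3% on days 6 and 9 and between 3.41 and 7.74% on days 12 and 15. The open squares of SW620 and SW620-TET2CD are at 8.87% and 17.8% on day 12 and at 5.74% and 7.17% on day 15.

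Single genes showed the same in shares of cells with a UMI at this depth. The median over the 48 genes of the mean share was 15.2% in the early libraries and 2.74% in the late ones, the highest early share being 47.6% for CENPF, a large kinetochore protein, and the highest late share 28.2% for BUB3. In cells with no more than 1 of the other 47 genes detected, at the same depth of 3000 UMIs, the median share was 1.69% early and 0.460% late. Since these cells were picked for few members, a share below that of all cells follows largely from the choice. BUB3 had a UMI in 26.7% of such late cells, close to its 28.2% of all late cells, whereas for all 48 genes the share in all late cells was above that in these cells.

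Within member-rich cells, the level of a gene was not lower on the late days in most cases. For each gene the class was set with the other 47 genes, and the mean CPM of the 4 late libraries was above that of the 4 early ones in 42 of the 48, with a median log2 ratio of 0.35. Among 11303 other genes with at least 80 UMIs in member-rich cells, 52.4% were higher late, with a median of 0.03. In the other cells all 48 were lower, with a median log2 ratio of -3.03, against 0.10 over 13782 other genes. Of all thinned cells, 26.4 to 33.1% had 5 to 9 of the 48 genes detected early and 2.23 to 7.45% late. A fall in the other cells thus follows in part from the cut, in which the 13782 genes had no part. PTTG1 had the highest ratio in member-rich cells (297.7 to 684 CPM, 1.20 on the log2 scale), followed by ANLN with 1.11 and KIF14 with 1.05. In 16 genes, TOP2A, CDC20 and CCNB2 among them, each late library was above each early one within this class, which held for 13% of the other genes, and in PLK1 and SMC2 each was below, as in 15.1% of the other genes. PLK1 went from a mean of 151 CPM early to 131 CPM late in member-rich cells and from 22.6 to 1.49 CPM in the others. KIF20A had the lowest ratio in the other cells, -4.17, and BUB3 the highest, -0.29. A median of 68.3% of a gene's UMIs came from member-rich cells early and 70.0% late, but BUB3 went from 48.5% to 10.5%, CDC25B from 50.4% to 14.7% and ECT2 from 54.01% to 13.97%. Since 119 to 346 cells of a late library were member-rich by the other 47 genes, these levels rest on few cells, and the class is bounded by the members' own counts, so no test was made.

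**Figure D4:**
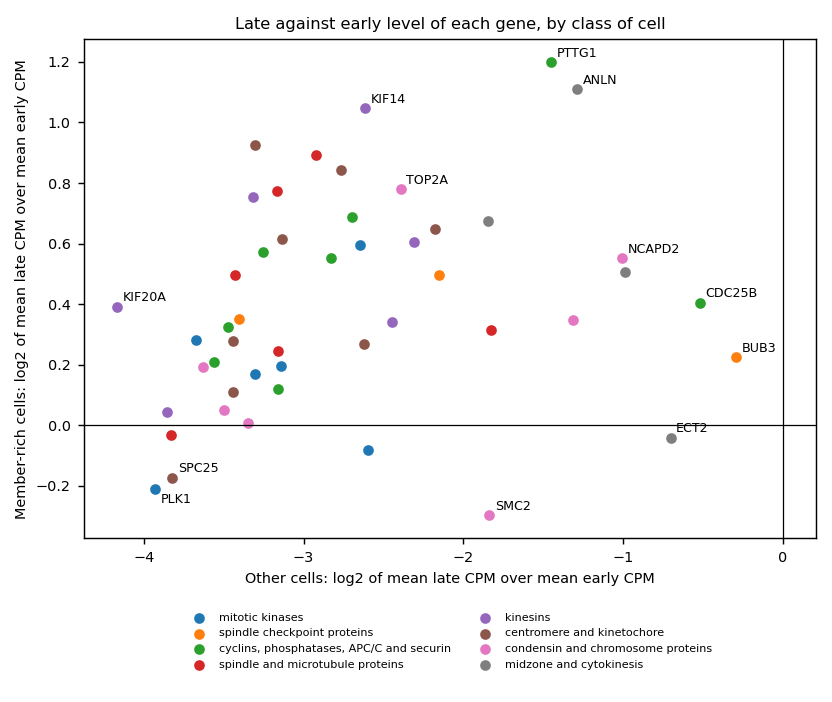
Each point is 1 of the 48 genes, with the log2 ratio of its mean late to its mean early CPM in member-rich cells (y axis) against the same ratio in the other cells (x axis); the class was set with the other 47 genes, and colours mark roles. All 48 points lie to the left of 0, with a median of -3.03, while 42 lie above 0 on the y axis, with a median of 0.35.

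The barcodes left out for high counts had a higher level of mitotic RNA than the kept cells in each library. Over the 8 libraries they held 3.40 to 68.3% of the UMIs of the 48 genes and 2.74 to 40.8% of all UMIs. Barcodes above 4500 genes or 20000 UMIs were 19.7% of barcodes in SW620 and 24.1% in SW620-TET2CD on day 12, and held 67.2% and 68.3% of the UMIs of the 48 genes, against 33.1% and 40.8% of all UMIs, in those libraries. In SW620 on day 6 they were 24.8% of barcodes and held 50.6% of the UMIs of the 48 genes, against 40.6% of all UMIs. On day 12 their summed level was 3478 CPM in SW620 and 4425 CPM in SW620-TET2CD, against 799.6 and 1346 CPM in the kept cells. On day 15 they were 1.52% and 4.73% of barcodes with 3733 and 4594 CPM, and on the early days 0.812 to 24.8% of barcodes with 5038 to 5819 CPM. The median such barcode had 20424 to 23996 UMIs, against 6640 to 13479 in kept cells, and whether it held 1 cell or 2 was not tested. Leaving out the 8% of kept cells with most UMIs in each library left all 48 called lower late, with a median log2 fold change of -2.61.

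In bulk RNA-seq, with expected counts of 16477779 to 25854058 a library, the 48 genes were also lower on day 15. Between whole SW620 cultures of day 6 and cells inside the colonies on day 15, all 48 had a lower TPM (a level scaled for gene length and library total), with a median log2 ratio of TPM + 1 of -1.86, and 45 were lower by more than 1, where 5.11% of 18992 genes were. Outside the colonies the median against day 6 was -1.46, with 41 lower by more than 1, where 4.74% of genes were. In bulk libraries, fewer cells of a kind and less RNA per cell cannot be told apart, and with 1 library each these ratios have no replicate check. PLK1 had 73.2 TPM in SW620 on day 6, 12.8 inside and 19.7 outside the colonies of SW620 on day 15, and 2.77 inside and 10.2 outside those of SW620-TET2CD. CCNB1 had 194 TPM in SW620 on day 6, 44.4 inside and 63.9 outside the colonies of SW620 on day 15, and 16.03 inside and 44.1 outside those of SW620-TET2CD. Both were lowest inside the colonies of SW620-TET2CD. BUB3 had 295 TPM in SW620 on day 6, 237 inside and 236 outside the colonies of SW620 on day 15, and 167 inside and 211 outside those of SW620-TET2CD. Compared with SW480, 38 of the 48 genes were lower in SW620 on day 6 and 10 higher, where 49.6% of all genes were higher. The 48 were lower by a median of 0.35 on the log2 scale, 2 of them by more than 1, where 14.4% of genes were. SMC4 had the lowest ratio, -1.16 (136 TPM in SW480 and 60.4 TPM in SW620), and CDK1 the highest, 0.89 (58.3 and 108.8 TPM).

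On day 15 most of the 48 genes had a higher level outside than inside the colonies, though none passed the main test of place below. The ratios were larger in SW620-TET2CD than in SW620, with 1 library for each line and place. In SW620-TET2CD all 48 had a higher TPM outside, where 56.7% of all genes did. The median log2 ratio of the 48 was 1.40, with 38 above 1, where 4.22% of genes were above 1. In SW620, 44 of the 48 were higher outside, where 44.2% of all genes were. The median of the 48 was 0.34, with 1 above 1, where 1.21% of genes were. That 1 was CENPF, with 8.33 TPM inside and 19.5 TPM outside. With 1 TPM added, CDC20 had the highest ratio in SW620-TET2CD, 2.06, and with 0.1 TPM added it was KIF20A, with 2.99. CDC20 had 84.04 TPM in SW620 on day 6, 19.1 inside and 27.00 outside the colonies of SW620 on day 15, and 3.84 inside and 19.2 outside those of SW620-TET2CD. AURKA had 58.2 TPM in SW620 on day 6, 13.6 inside and 15.96 outside the colonies of SW620 on day 15, and 4.32 inside and 13.8 outside those of SW620-TET2CD. MKI67 had 56.6 TPM in SW620 on day 6, 11.3 inside and 15.2 outside the colonies of SW620 on day 15, and 2.69 inside and 7.89 outside those of SW620-TET2CD. In all 48 the ratio was larger in SW620-TET2CD, by a median of 1.00, from 0.08 for ECT2 to 1.81 for TROAP, or to 2.51 for CENPE with 0.1 TPM added. That difference lay mostly inside the colonies, where SW620-TET2CD was below SW620 in all 48 (median -1.30, 36 by more than 1, where 3.44% of genes were). Outside it was below in 45 with a median of -0.33 and none by more than 1, where 2.95% of genes were. Over all genes, 47.2% were higher in SW620-TET2CD than in SW620 inside and 57.2% outside.

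**Figure D5:**
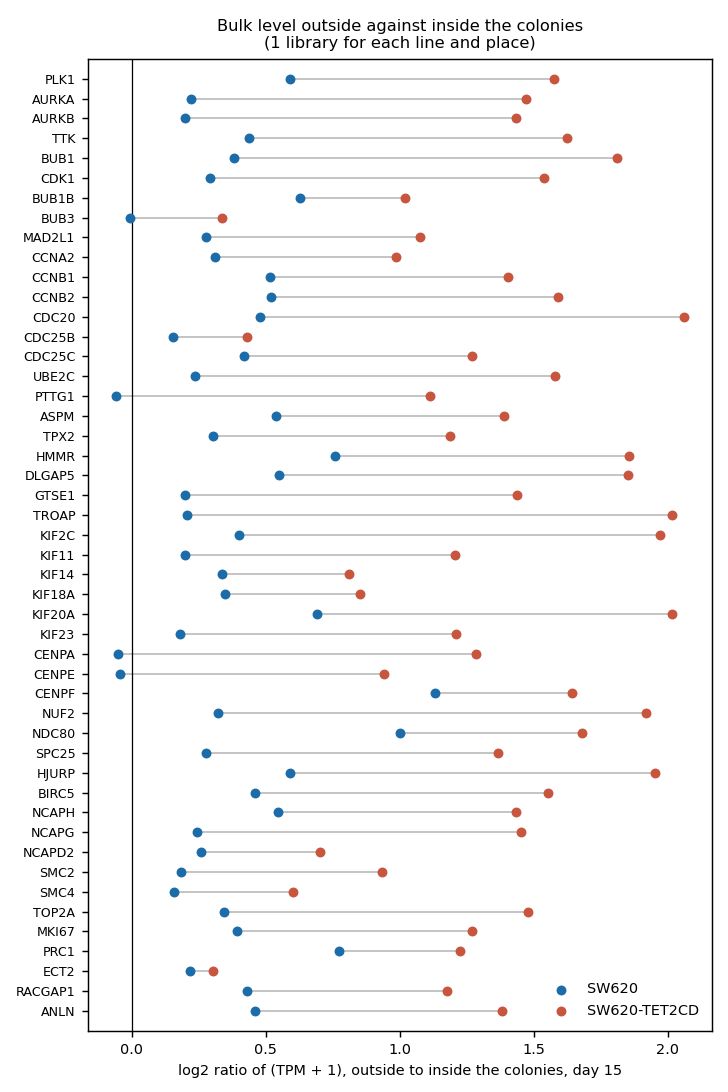
The log2 ratio of TPM + 1 outside to inside the colonies on day 15 for each of the 48 genes, in SW620 (blue) and SW620-TET2CD (red), with 1 library for each line and place. All 48 red points lie above 0 and right of their blue partner, with a median of 1.40 against 0.34, and 4 blue points lie just below 0.

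The test of place over both lines, with line as a block and 4 libraries, did not reach the threshold for any of the 48. It called 0% of 17722 genes in edgeR, with 1068 genes and 41 of the 48 at an unadjusted p under 0.05, and the lowest adjusted p of a member was 0.772. The median log2 fold change of the 48 was 1.00, with all 48 above 0, from 0.13 for BUB3 to 1.59 for KIF20A. DESeq2 called 24 genes and 2 of the 48, both higher, where 0.0771% of genes were called higher, and edgeR without the filter on low counts called 36 of the 48, all higher, where 0.903% of 31544 genes were called higher. With a library left out, line was not in the fit, so differences between the lines entered the fold changes of place. These fits are therefore not a check of the test with line as a block. In them the median was 0.48 without the SW620 library from outside, 0.20 without the SW620-TET2CD library from inside and 1.82 without the SW620 library from inside.

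Other genes of mitosis, taken from lists of the APC/C, cohesin, the kinetochore, the passenger complex, further kinases and kinesins, moved in the same direction in the single-cell data. Of 93 such genes tested, 81 were called lower late and 1 higher, with a median log2 fold change of -1.66. The exception was CCNB3, a cyclin of meiosis, with 0.98. All 19 other kinesins and spindle genes fell (from KIF18B at -2.64 to CKAP5 at -0.73), as did 27 of 29 other kinetochore and centromere genes (from ZWINT at -3.16 to CENPC at 0.05, not called). The 15 other subunits of the APC/C changed least, with 10 called lower and a median of -0.62, from ANAPC15 at -1.62 to ANAPC16 at 0.01. Of the 32 replication genes set beside them, all were called lower (median -2.40, from CLSPN at -3.44 to POLA1 at -1.45). Of 10 genes that encode FOXM1, MYBL2, the NF-Y subunits and subunits of the MuvB complex, regulators of such genes, 8 were called lower, from MYBL2 at -3.94 to NFYA at 0.39.

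The promoters of these genes are shown because the 48 moved together. Many genes of G2 and mitosis carry a CHR element (cell cycle genes homology region), bound by the DREAM and MMB complexes, and CCAAT boxes, bound by NF-Y. Sequences were taken from RefSeq on GRCh38.p14, 250 bases before to 50 after the start of each gene, for the 40 of 48 members with an entry, and searched on both strands for TTTGAA or TTCGAA as the CHR and for CCAAT. A CHR match was found in 30 of the 40 (75.0%), against 16.4% of 35116 promoters of all genes, and a CCAAT match in 29 (72.5%), against 34.6%. Both were found in 23 (57.5%), against 6.38%, and in 1 member a CHR match shared bases with a CCAAT match. The nearest CHR match began within 50 bases of the start in 22 of the 30. No share over all promoters is given for this position, so it is not read as particular to the members. The 150 bases before the start are given below, 5′ to 3′ in the direction of the gene, with matches in capitals, for members of different roles (KIF11 is the motor that pushes spindle poles apart) and for CDC25B, whose fall was small.
PLK1: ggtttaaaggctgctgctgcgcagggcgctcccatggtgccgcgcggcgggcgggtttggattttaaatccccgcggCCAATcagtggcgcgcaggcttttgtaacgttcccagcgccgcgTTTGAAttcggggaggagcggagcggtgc
CCNB2: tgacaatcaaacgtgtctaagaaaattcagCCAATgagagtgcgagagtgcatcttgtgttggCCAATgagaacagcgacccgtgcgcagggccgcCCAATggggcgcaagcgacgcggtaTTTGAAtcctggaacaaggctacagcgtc
CDC20: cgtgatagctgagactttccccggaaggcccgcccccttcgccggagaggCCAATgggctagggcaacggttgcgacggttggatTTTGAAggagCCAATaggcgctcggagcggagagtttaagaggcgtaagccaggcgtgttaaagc
KIF11: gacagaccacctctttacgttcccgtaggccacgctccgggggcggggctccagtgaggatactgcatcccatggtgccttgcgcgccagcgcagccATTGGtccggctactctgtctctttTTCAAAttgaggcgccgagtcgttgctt
MKI67: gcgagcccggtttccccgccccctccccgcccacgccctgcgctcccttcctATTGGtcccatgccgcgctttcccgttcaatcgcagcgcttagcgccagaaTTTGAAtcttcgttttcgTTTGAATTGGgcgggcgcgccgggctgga
PRC1: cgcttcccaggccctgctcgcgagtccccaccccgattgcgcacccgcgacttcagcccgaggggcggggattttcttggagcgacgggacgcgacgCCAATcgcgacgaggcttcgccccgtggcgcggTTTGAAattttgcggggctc
CDC25B: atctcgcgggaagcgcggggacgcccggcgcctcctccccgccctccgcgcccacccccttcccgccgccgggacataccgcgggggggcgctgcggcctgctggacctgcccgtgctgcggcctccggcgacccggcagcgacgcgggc
These stretches lie at chr16:23678739-23678888 on the plus strand for PLK1, chr15:59104996-59105145 on the plus strand for CCNB2, chr1:43358831-43358980 on the plus strand for CDC20, chr10:92592980-92593129 on the plus strand for KIF11, chr10:128126424-128126573 on the minus strand for MKI67, chr15:90994536-90994685 on the minus strand for PRC1 and chr20:3786801-3786950 on the plus strand for CDC25B. PLK1, KIF11 and PRC1 each had 1 CCAAT match upstream of 1 CHR match, CCNB2 had 3 upstream of its CHR, CDC20 had 1 on each side of it, and in MKI67 the second CHR match ran into a CCAAT match on the other strand. CDC25B had neither motif in these bases or in the full window, as had CDC25C, KIF2C and CENPE, and of these 4 only CDC25B was among the members with the smallest falls. ECT2 and NCAPD2, with small log2 fold changes of -1.12 and -1.30, had both motifs in the full window. BUB3, which fell least, had no entry. A match is a description of letters and not a measured site, and binding was not measured here.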

How the data were processed

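Single-cell libraries were made with a 10x Genomics 3′ kit. The deposited matrices hold, per the file headers and labels, UMI counts per gene and barcode that the authors made with Cell Ranger 4.0 against GRCh38. The bulk files hold expected counts and TPM values of genes, which the authors estimated with RSEM after Bowtie alignment. The submitters' notes name mm10 for the bulk files, whose gene identifiers are human Ensembl ones, so the build behind them is uncertain. For the strand setting of the counting, the sources used here give nothing.

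Cells were filtered as stated above, 48186195 to 74185723 UMIs per library remained, and UMIs were summed per library. Doublets were not called. The sources used here do not say whether the authors removed any. Sums and rounded expected counts were tested with edgeR 4.0.16 (filterByExpr, TMM factors, two-sided quasi-likelihood test) under R 4.3.3. The standard errors given with ± were derived from that test, as the absolute log2 fold change over the square root of its F statistic. Adjustment followed Benjamini and Hochberg over every gene tested, and calls were made at an adjusted p under 0.05. Late against early days took line as a block, the lines were compared with day as a block, and place took line as a block. TPM ratios used a pseudocount of 1, for genes with 1 TPM in any library. Cells were thinned without replacement to 3000 UMIs. Recovery was estimated on simulated counts, for genes shifted by 1 and by 2 on the log2 scale. It was 79% and 99% for the late against early design (16993 genes) and 53% and 88% for that of place (17722 genes). Apart from the shift and library size, each gene had the same simulated mean in all libraries. The shares for place cannot be read as power on the measured counts, where this test called 0 genes. There the log2 ratio outside to inside differed between the lines by a median of 1.00 over the members, which this fit does not model. Promoter motifs were counted in the RefSeq table of GRCh38.p14.

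The genes with values in every library were 16 members of central roles, the 3 with the lowest and the 3 with the highest late against early change, and members called against the trend. Examples with single values and the promoters shown were chosen after their values were seen. The members, the other gene lists and the alternatives were chosen with earlier results of these data known. Alternatives were DESeq2 1.42.0, no filter on low counts, upper-quartile factors, other cell filters, thinned cells, no block and each library left out. Dropping the 8% of cells richest in UMIs was added after the data were seen. Python 3.11.15 with numpy 2.4.6, pandas 2.3.3, scipy 1.17.1 and matplotlib made the other tables and plots.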

Additional observations from a re-analysis of the deposited data

Results flagged for a closer look

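Barcodes above the upper limits on genes and UMIs stood outside every comparison of kept cells, and the 48 genes were higher in them than in the kept cells of the same library. Their summed level in these barcodes was 3478 CPM in SW620 and 4425 CPM in SW620-TET2CD on day 12, and 3733 and 4594 CPM on day 15, against 799.6, 1346, 1225 and 1196 CPM in the kept cells. How many of these barcodes held more than 1 cell was not tested.

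For 4 genes the bulk libraries of day 15 moved in opposite directions in the lines, lower outside the colonies in SW620 and higher outside in SW620-TET2CD. The log2 ratio outside to inside was larger in SW620-TET2CD by 1.34 for CENPA, 1.17 for PTTG1, 0.99 for CENPE (2.51 with 0.1 TPM added in place of 1) and 0.34 for BUB3. In SW620 the 4 ratios were between -0.06 for PTTG1 and -0.01 for BUB3, and with 1 library for each line and place the difference was not tested.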

How the results depend on the processing

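All 48 genes were called lower late under each of the 17 alternatives, with medians from -2.61 to -1.55 on the log2 scale. From day 9 to day 12 all 48 were called lower under each alternative but the 2 that left out a SW620 library of day 9 or day 12, with 46. Between the lines and in the interaction no member was called under any alternative. From day 6 to day 9, 1 member was called lower with no filter on low counts (1.89% of all genes) and with every barcode (1.18%), and 0 to 1 when a library was left out, with 1 without the SW620 library of day 15 (4.37%) and 1 without the SW620-TET2CD one (4.12%). From day 12 to day 15, DESeq2 called 7 higher (6.11% of all genes), no filter 15 (5.63%), and leaving out 1 library gave 2 to 16, with 16 without the SW620-TET2CD library of day 12 (0.872%) and 4 called lower without the SW620 library of day 12 (5.39%). With every barcode (9.34% of genes lower), and with no upper limits (8.82%), 27 members were called lower. ANLN then had -0.17 and -0.16, PRC1 -0.20 and -0.18, and RACGAP1 -0.17 and -0.16 on the log2 scale. Between places, DESeq2 called 2 members (0.0771% of genes higher) and no filter 36 (0.903%). Upper-quartile factors moved the median of all genes by 0.17 between late and early days and by 0.18 between days 9 and 12. The late minus early difference in member-rich cells was -30.9 percentage points with every barcode, -60.3 at a limit of 5 members, -15.0 at 15, -20.1 at 2000 UMIs and -62.5 without thinning, and -35.7 to -32.7 when a library was left out. The cause of these changes was not tested. With a pseudocount of 0.1 TPM the median bulk ratio outside to inside was 0.39 in SW620 and 1.62 in SW620-TET2CD. In the main fits the line comparison was paired by day, and the comparisons of days and of places by line. The alternatives with no block, and those of place with a library left out, dropped this pairing. The labels give no replicate numbers for another pairing. Each condition had 1 library, so the spread between cultures is not measured.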
